A study of Mus musculus with 2 samples.

Results

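The Aqp1-high capillary endothelial cells of the mouse ileum are 134 of the 7045 cells that passed the quality filter, 26 in library WT_EC 1 and 108 in library WT_EC 2. They were chosen cell by cell from raw unique molecular identifier (UMI) counts, each UMI standing for 1 captured mRNA molecule. A member had at least 3 Aqp1 UMIs and no UMI of Cd300lg or Aqp7, and it passed a capillary gate. That gate asked for at least 5 UMIs of Flt1, Cd34, Plvap and Esam together, at most 2 of the lymphatic genes Mmrn1, Lyve1, Reln and Prox1, at most 1 of the venous genes Ackr1, Selp and Madcam1, at most 1 of the arterial genes Sema3g, Fbln5, Stmn2, Gja5 and Bmx, and at least as many UMIs of Gpihbp1 and Aqp1 together as of Plvap. Of the 195 and 948 cells inside the gate in libraries 1 and 2, 35 and 163 had no Cd300lg or Aqp7 UMI, and 26 and 108 of these reached 3 Aqp1 UMIs.

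Both libraries come from the small intestine of wild-type C57Bl/6 males aged 8 weeks, and they form 1 group (n = 2). Cells negative for EpCAM and CD45 and positive for CD31 were sorted as blood endothelium (PDPN-negative) and lymphatic endothelium (PDPN-positive), and were captured with the Chromium 3′ chemistry, version 3. Which sort gate a cell passed is not recorded in the labels, and separate mice are not stated for the libraries. The errors and p-values of the fits below therefore rest on these 2 libraries only, whose differences may be technical. They measure how far class differences vary between the libraries, with a spread largely shared across genes. Other classes were drawn from the same counts. Cd300lg/Aqp7 capillary cells (124 and 610 cells) passed the same capillary gate with at least 2 UMIs of Cd300lg and Aqp7 together and any Aqp1 count. Plvap-high capillary cells (301 and 2051) passed the first 4 steps but had fewer Gpihbp1 and Aqp1 UMIs than Plvap UMIs.

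Capillary endothelium is the exchange surface of a tissue. In capillaries that take up fat from the blood, Gpihbp1 carries lipoprotein lipase (Lpl) to the vessel lumen, where the enzyme frees fatty acids from lipoproteins; Cd36 takes those up and Fabp4 and Fabp5 carry them through the cell, under the control of transcription factors such as Pparg and the Meox2/Tcf15 pair. Aqp1 is a water channel of many endothelia, Aqp7 conducts glycerol as well as water, and Cd300lg is a surface receptor of capillaries. Plvap builds the diaphragms of fenestrae and caveolae, which intestinal mucosal capillaries have in large numbers.

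The libraries held 3806199 and 26645476 UMIs in 1026 and 6302 barcodes, and 2 barcodes occurred in both, 1 of them a member in a library. Aqp1-high cells made up 2.66% of the filtered cells of library 1 (exact 95% binomial interval 1.74 to 3.87%) and 1.78% of library 2 (1.46 to 2.15%), intervals that cover counting error only. Summed over the class, they carried 80113 and 289763 UMIs. Aqp1-high cells were the shallower class, with a median of 3052 and 2565.5 UMIs per cell, against 3127.5 and 3557.5 in Cd300lg/Aqp7 cells and 3653 and 4149 in Plvap-high cells. The median mitochondrial share was 1.64% and 2.28% in Aqp1-high cells, 1.84% and 1.96% in Cd300lg/Aqp7 cells and 2.48% and 2.71% in Plvap-high cells. The rule asks for a count of 0, which shallow cells meet more easily. With cells of 2000 or more UMIs thinned to 2000 and shallower cells left out, the class held 32 and 149 cells. That was a mean share of 3.47% of the 790 and 5158 cells that then passed the quality filter. With the raw counts the mean share was 2.22% of all filtered cells. The cells left out held 5 and 26 of the raw members.

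The genes that chose the cells describe the class and are given without a test. Levels here are in CPM, the UMIs of a gene summed over the cells of a class in 1 library and scaled to a total of 1000000 UMIs of those cells. Aqp1 stood at 8401 and 7237 CPM in Aqp1-high cells, against 5483 and 4237 in Cd300lg/Aqp7 cells and 136 and 129 in Plvap-high cells. Aqp1-high cells had the highest level in both libraries. The remaining cells of the capillary gate, at 5512 and 4599, and Cd300lg/Aqp7 cells came next with ranges that overlap, and lymphatic cells followed at 1585 and 1189. Per cell, Aqp1-high cells had 4 to 54 Aqp1 UMIs in library 1 (median 26) and 3 to 76 in library 2 (median 15). Cd300lg/Aqp7 cells spanned 0 to 101 (median 14.5) and 0 to 131 (median 12), and 98 of the 124 and 453 of the 610 also had 3 or more. A high Aqp1 count is therefore shared by most cells of both classes, and what separates them is mainly the missing Cd300lg and Aqp7.

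**Figure D1:**
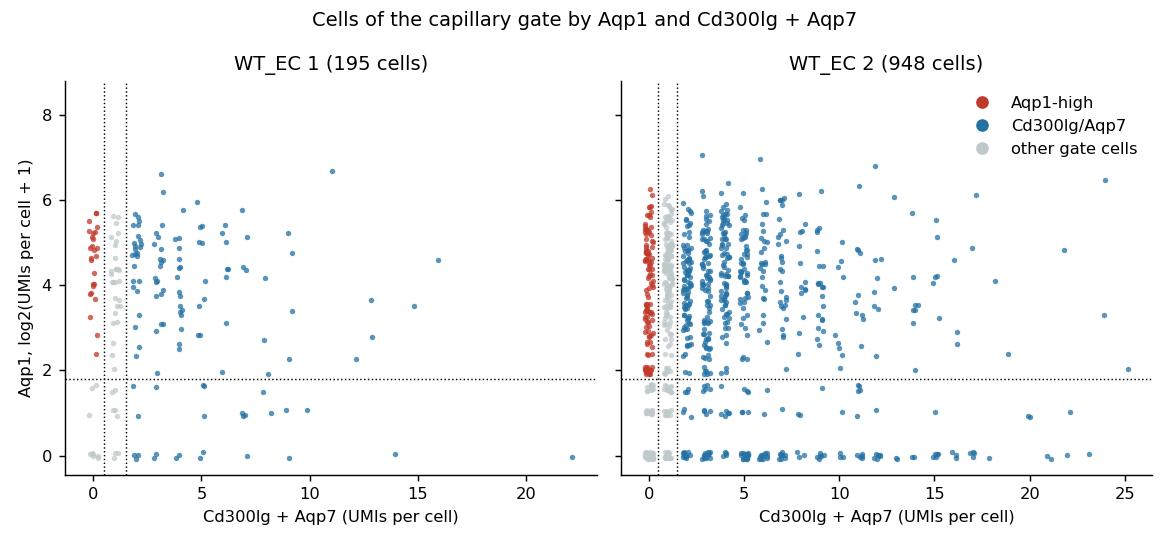
Each point is a cell of the capillary gate in library WT_EC 1 (left) or WT_EC 2 (right), with its summed Cd300lg and Aqp7 UMIs on the x axis and log2(Aqp1 UMIs + 1) on the y axis, both jittered slightly; dotted lines mark the thresholds. The 26 and 108 Aqp1-high cells sit at the left edge above the line, at Aqp1 counts that Cd300lg/Aqp7 cells also reach.

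Of the other genes that mark the class, Gpihbp1 had 1373 and 1118 CPM in Aqp1-high cells, below the 2082 and 1837 of Cd300lg/Aqp7 cells and above the 114 and 113 of Plvap-high cells. Cd36 followed the same order, with 2222 and 2709 in Aqp1-high cells, 4229 and 4158 in Cd300lg/Aqp7 cells and 1260 and 1268 in Plvap-high cells. Cxcl12, the chemokine that signals through Cxcr4, had 4556 and 3323 in Aqp1-high cells, 3885 and 3699 in Cd300lg/Aqp7 cells and 3448 and 3208 in Plvap-high cells. The Aqp1-high range of Cxcl12 thus overlapped those of both other classes. Myo10, a motor protein of filopodia, had 799 and 763 in Aqp1-high cells and 857 and 675 in Cd300lg/Aqp7 cells, again overlapping, against 234 and 155 in Plvap-high cells. Plvap itself was at 262 and 449 in Aqp1-high cells, 304 and 425 in Cd300lg/Aqp7 cells and 4662 and 4660 in Plvap-high cells.

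**Figure D2:**
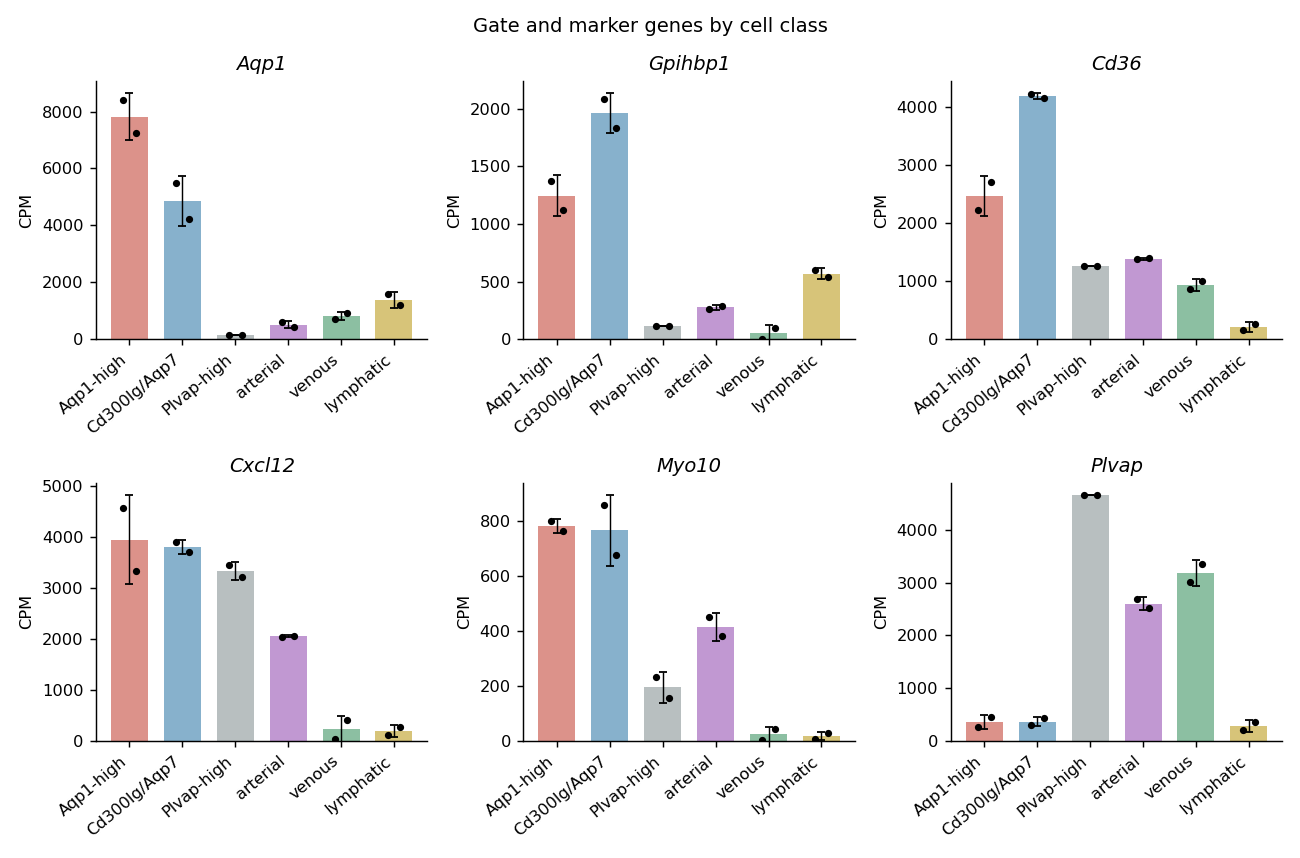
Bars give the mean of both libraries in CPM for 5 marker genes of the class and Plvap, error bars the SD (n = 2) and points the libraries (WT_EC 1 left, WT_EC 2 right), by cell class. Aqp1 is highest in Aqp1-high cells, Gpihbp1 and Cd36 in Cd300lg/Aqp7 cells, and Plvap in Plvap-high cells.

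The label of the cells as capillary endothelium was checked against marker lists. The 10 pan-endothelial genes summed to 7402 and 7634 CPM in Aqp1-high cells, against 9449 and 8572 in Cd300lg/Aqp7 cells and 6092 and 5464 in Plvap-high cells. The 10 capillary genes summed to 9424 and 9698 in Aqp1-high cells, against 11466 and 11377 in Cd300lg/Aqp7 cells, 8479 and 8553 in Plvap-high cells, 6546 and 6822 in arterial cells and 3123 and 4305 in venous cells. Pericyte genes summed to 0 and 3.45 in Aqp1-high cells, with 6 of 7 at 0 (Rgs5 and Pdgfrb among them), against 393 and 92.9 in Cd300lg/Aqp7 cells and 109 and 132 in Plvap-high cells. The summed leukocyte genes were at 0 and 31.1 in Aqp1-high cells and 6.97 and 46.9 in Cd300lg/Aqp7 cells, and the fibroblast genes at 0 and 44.9 in Aqp1-high cells and 118 and 54.8 in Cd300lg/Aqp7 cells. Epithelial genes gave 62.4 and 27.6 in Aqp1-high cells, 44.1 and 31.9 in Cd300lg/Aqp7 cells and 9.63 and 919.9 in Plvap-high cells, and the part of such RNA in the comparisons was not tested.

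The Aqp1 promoter is shown because Aqp1 is the gene that defines the class. It lies at chr6:55336049-55336348 (GRCm38, plus strand) and runs from 250 bases before the RefSeq start to 50 after it. Capitals mark the letters CACCC, read on both strands as GGGTG, a sequence bound by Krüppel-like factors, which respond to blood flow.
Aqp1 promoter: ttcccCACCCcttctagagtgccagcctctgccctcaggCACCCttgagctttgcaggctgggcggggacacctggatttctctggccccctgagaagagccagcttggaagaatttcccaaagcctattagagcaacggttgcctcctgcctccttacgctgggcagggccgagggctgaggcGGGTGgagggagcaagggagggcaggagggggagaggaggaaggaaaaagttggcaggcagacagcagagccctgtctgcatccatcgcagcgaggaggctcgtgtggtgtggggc
It holds 3 matches, but 57.5% of 32851 RefSeq promoters of the same length hold at least 1, so holding a match is common. The share of promoters with 3 or more matches was not counted.

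How the transcriptome of Aqp1-high cells differs from that of their closest neighbours was asked first. Aqp1-high cells had higher levels of the cytokine Il6, of von Willebrand factor and of 7 of 26 interferon response and 8 of 22 immediate early genes, and lower levels of Fabp4, Pparg and 5 other genes of fatty acid handling, than Cd300lg/Aqp7 cells. Levels in other classes are given beside several of these genes, and no difference is called particular to Aqp1-high cells. Of 8465 genes tested, 172 passed at an adjusted p of 0.05 (2.03%), 111 of them higher (1.31%) and 61 lower (0.721%) in Aqp1-high cells. Each class and library gave 1 summed count per gene, and the sums of 3 classes were fitted together with edgeR's quasi-likelihood test, the library as a block and Benjamini-Hochberg adjustment; the 23 genes of the gates and marker list were not tested. Of the 172, 169 moved the same way in library 1 and library 2, which held for 56.8% of the 8465. The genes were called from these same libraries, so the selection favours such agreement, which is no separate support. Without the library block 34 genes passed. The fit has 2 residual degrees of freedom and leans on a spread shared across genes, and 982 genes had an unadjusted p under 0.05.

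Il6 had the largest increase by the rule that named genes. It had 212 and 255 CPM in Aqp1-high cells, against 23.2 and 36.9 in Cd300lg/Aqp7 cells, with no overlap between the classes. The log2 fold change was 2.86 ± 0.25 (SE; edgeR adjusted p = 5.04e-25). Plvap-high cells were between them at 93.7 and 101, and venous cells, at 321 and 478, above all of them. Rgs16, which shortens signals of G protein-coupled receptors, had 362 and 245 in Aqp1-high cells and 62.7 and 99.5 in Cd300lg/Aqp7 cells (log2 1.62 ± 0.21, edgeR adjusted p = 9.21e-11). Venous cells had 308 and 346 Rgs16 CPM, inside the Aqp1-high range.

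The Il6 promoter is shown because Il6 was the largest increase and is a textbook target of NF-kB. It lies at chr5:30012864-30013163 (GRCm38, plus strand, RefSeq), with the NF-kB motif GGGANTTTC in capitals, starting 44 bases before the start.
Il6 promoter: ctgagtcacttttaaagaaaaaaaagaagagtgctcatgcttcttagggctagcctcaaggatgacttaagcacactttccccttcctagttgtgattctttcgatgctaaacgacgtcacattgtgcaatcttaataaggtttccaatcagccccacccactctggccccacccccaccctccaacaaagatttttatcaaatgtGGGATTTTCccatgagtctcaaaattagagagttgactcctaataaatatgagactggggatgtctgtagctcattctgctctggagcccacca
This motif, searched on both strands, is in 1.11% of the 32851 promoters. Of the 111 genes higher in Aqp1-high cells, 82 have a RefSeq promoter and 2 hold it (2.44%), Il6 and Nfkbia. That share is counted per gene and the 1.11% per promoter, and whether they differ was not tested.

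Genes of the venous side of the circulation were higher in 3 of 13 tested members and lower in none, with a median log2 difference of 0.59 beside -0.02 over all genes tested. Vwf, the clotting factor carrier and platelet adhesion protein, had 424 and 421 CPM in Aqp1-high cells, against 137 and 154 in Cd300lg/Aqp7 cells (log2 1.50 ± 0.18, adjusted p = 6.29e-13). Arterial cells, at 427 and 379, were near Aqp1-high cells, and venous cells stood far above at 1291 and 1128. Icam1, a leukocyte adhesion receptor, had 649 and 424 in Aqp1-high cells and 235 and 315 in Cd300lg/Aqp7 cells (log2 0.77 ± 0.17), and 3592 and 3012 in venous cells. Lrg1, a secreted glycoprotein of venous endothelium, had 162 and 62.1 in Aqp1-high cells and 13.9 and 31.1 in Cd300lg/Aqp7 cells (log2 1.64 ± 0.36). Aqp1-high cells thus carried more of these 3 mRNAs than Cd300lg/Aqp7 cells but a small part of the venous level of Icam1 and Lrg1. Against Plvap-high cells Vwf and Icam1 were called higher too, and Lrg1 was called lower. Summed over the 17 listed genes, the level was 3220 and 3151 in Aqp1-high cells, 2391 and 2663 in Cd300lg/Aqp7 cells and 11454 and 10167 in venous cells.

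Lag3, an inhibitory receptor best known from T cells, had 74.9 and 75.9 CPM in Aqp1-high cells and 4.65 and 12.9 in Cd300lg/Aqp7 cells (log2 2.69 ± 0.42, adjusted p = 1.10e-07). In Plvap-high cells Lag3 was at 91.9 and 55.8, a range that holds both Aqp1-high libraries. The metalloproteinase genes Adamts4 and Adamts1 were the only 2 of 24 basement membrane and matrix genes to pass, both higher. Adamts4 had 87.4 and 259 in Aqp1-high cells and 46.5 and 55.6 in Cd300lg/Aqp7 cells (log2 2.03 ± 0.25), and its log2 difference in library 1 alone was 0.90. Against Plvap-high cells Adamts4 was called lower and Adamts1 did not pass. Adamts1 had 1186 and 1063 in Aqp1-high cells and 802 and 557 in Cd300lg/Aqp7 cells (log2 0.76 ± 0.14). Csrp2, a LIM domain protein, had 175 and 159 in Aqp1-high cells and 55.8 and 64.7 in Cd300lg/Aqp7 cells (log2 1.39 ± 0.26).

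Immediate early and heat shock genes were higher in 8 of 22 tested members and lower in none, with a median log2 difference of 0.44. The 8 were Atf3, Ier3, Hsp90aa1, Socs3, Fosb, Egr1, Zfp36 and Jund, with log2 differences from 0.44 (Jund) to 0.97 (Atf3). Against Plvap-high cells Jun, Atf3 and Egr1 were called higher, and Socs3 and Dnajb1 lower. Atf3 passed in all 15 alternatives, while Ier3, Hsp90aa1 and Socs3 did not pass in 3 of them, Fosb in 6, Egr1 in 8, Zfp36 in 9 and Jund in 10. Atf3, a stress-induced transcription factor, had 1323 and 918 CPM in Aqp1-high cells and 574 and 521 in Cd300lg/Aqp7 cells. Egr1, a zinc finger factor induced within minutes, had 3096 and 2685 in Aqp1-high cells and 1529 and 2341 in Cd300lg/Aqp7 cells (log2 0.55 ± 0.12). All 22 genes together summed to 26026 and 25766 in Aqp1-high cells, against 16229 and 22469 in Cd300lg/Aqp7 cells and 20690 and 22999 in Plvap-high cells. Arterial cells, at 25277 and 25610, and the remaining cells of the capillary gate, at 21553 and 26032, came near or reached the Aqp1-high level. These genes also respond to tissue dissociation, and the part of that in the other differences was not tested. Apold1, listed with the apolipoproteins by its domain but known as an early response gene of endothelium, had 1086 and 1287 in Aqp1-high cells and 544 and 687 in Cd300lg/Aqp7 cells (log2 0.95 ± 0.14).

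Interferon response genes passed in 8 of 26 tested members, 7 higher (Ifit1, Irf8, Isg15, Irf1, Irgm1, Igtp and Iigp1) and Ifi27 lower, with a median log2 difference of 0.24. Irf1 and Irf8 passed in all 15 alternatives, while Iigp1 did not pass in 1, Ifit1 and Isg15 in 2, Irgm1 in 4, Ifi27 in 7 and Igtp in 8. Irf1, a transcription factor of the interferon response, had 761 and 707 CPM in Aqp1-high cells and 316 and 401 in Cd300lg/Aqp7 cells (log2 0.98 ± 0.16, adjusted p = 1.89e-07). Its level in Plvap-high cells was 795 and 639, a range that holds both Aqp1-high libraries. Irf8 had 200 and 204 in Aqp1-high cells and 86.0 and 80.5 in Cd300lg/Aqp7 cells (log2 1.33 ± 0.23). Ifit1, an antiviral RNA-binding protein, had 125 and 276 in Aqp1-high cells and 74.3 and 92.1 in Cd300lg/Aqp7 cells (log2 1.46 ± 0.22), and Isg15, a ubiquitin-like modifier, had 549 and 645 in Aqp1-high cells and 235 and 355 in Cd300lg/Aqp7 cells (log2 0.98 ± 0.16). The summed level of the list was 10860 and 12220 in Aqp1-high cells and 10323 and 10668 in Cd300lg/Aqp7 cells. It was 11391 and 10417 in the remaining cells of the capillary gate and 12530 and 11986 in venous cells, ranges that overlap that of Aqp1-high cells. The MHC genes are among the lists with no gene that passed.

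**Figure D3:**
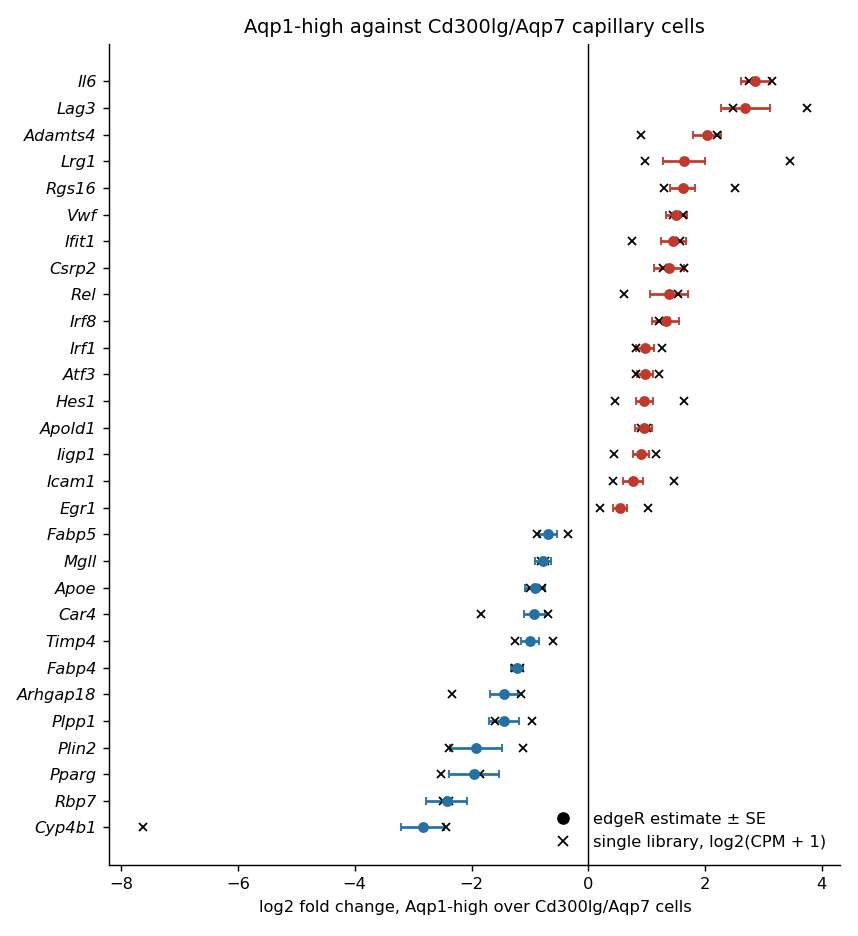
Log2 fold changes of Aqp1-high over Cd300lg/Aqp7 capillary cells for 29 genes, with circles and bars giving the edgeR estimate ± SE and crosses each library alone as log2 of (CPM + 1). Il6 lies farthest right at 2.86 and Cyp4b1 farthest left at -2.84, where the cross near the left edge is library 1, in which Aqp1-high cells had no Cyp4b1 UMI.

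Some genes of fatty acid handling were lower in Aqp1-high cells. In the list of lipid uptake and lipoprotein handling 4 of 14 tested members were lower (Angptl4, Fabp4, Apoe and Fabp5) and Apold1 was higher, with a median log2 difference of -0.62. Fabp4, the fatty acid carrier, had 7152 and 9125 CPM in Aqp1-high cells, against 17165 and 20608 in Cd300lg/Aqp7 cells. Both Aqp1-high libraries were below both Cd300lg/Aqp7 libraries, with a log2 fold change of -1.22 ± 0.11 (adjusted p = 8.73e-24). Its relative Fabp5 had 587 and 590 in Aqp1-high cells and 750 and 1086 in Cd300lg/Aqp7 cells (log2 -0.69 ± 0.15). Apoe, a lipoprotein component, had 462 and 376 in Aqp1-high cells and 799 and 753 in Cd300lg/Aqp7 cells (log2 -0.91 ± 0.16). Lpl had 412 and 242 in Aqp1-high cells and 548 and 377 in Cd300lg/Aqp7 cells, and did not pass (log2 -0.55 ± 0.18, adjusted p = 0.0755). The 6 adipocyte marker genes summed to 0 and 3.45 in Aqp1-high cells, with 5 of 6 at 0 (Adipoq and Plin1 among them), against 34.9 and 54.3 in Cd300lg/Aqp7 cells, and their part in these differences was not tested.

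Angptl4, a secreted inhibitor of lipoprotein lipase, had no UMI in either Aqp1-high library, against 112 and 54.8 CPM in Cd300lg/Aqp7 cells. A floor of 3 counts over the class, 8.11 CPM, makes it at least 7.81-fold lower. Of 18 genes of lipid metabolism and its control, Pparg, Plin2 and Mgll were lower and none was higher (median log2 -0.26). Pparg, the nuclear receptor that drives fatty acid storage and transport genes, had 12.5 and 27.6 in Aqp1-high cells and 76.7 and 102 in Cd300lg/Aqp7 cells (log2 -1.96 ± 0.43). Its Aqp1-high level in library 1 is that of 1 UMI. Against Plvap-high cells Pparg was called higher. Plin2, the coat protein of lipid droplets, had 49.9 and 13.8 in Aqp1-high cells and 109 and 76.3 in Cd300lg/Aqp7 cells (log2 -1.93 ± 0.44). Mgll, which splits monoglycerides, had 899 and 880 in Aqp1-high cells and 1573 and 1478 in Cd300lg/Aqp7 cells (log2 -0.77 ± 0.14). Tcf15 had 424 and 683 in Aqp1-high cells and 685 and 749 in Cd300lg/Aqp7 cells and did not pass (adjusted p = 0.571).

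The largest fitted decrease was that of Btnl9, a butyrophilin-like surface protein of capillary endothelium. Btnl9 had no UMI in either Aqp1-high library, against 253 and 222 CPM in Cd300lg/Aqp7 cells, which is at least 27.9-fold lower (adjusted p = 1.80e-25). Other classes carried some, with 44.6 and 43.7 in Plvap-high cells and 76.2 and 55.5 in arterial cells, while venous cells had 0 and 7.84. Its promoter is shown because the gene had the largest decrease. It lies at chr11:49187040-49187339 (GRCm38, minus strand, RefSeq), with CACCC in capitals 32 bases after the start.
Btnl9 promoter: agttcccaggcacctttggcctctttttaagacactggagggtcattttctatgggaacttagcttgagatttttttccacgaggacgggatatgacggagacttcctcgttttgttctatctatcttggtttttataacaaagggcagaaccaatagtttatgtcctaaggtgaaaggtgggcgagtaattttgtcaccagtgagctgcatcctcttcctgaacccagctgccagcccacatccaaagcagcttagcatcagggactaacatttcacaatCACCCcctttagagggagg
The Il6 motif is not in this window.

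Cyp4b1, a cytochrome P450, had 0 and 34.5 CPM in Aqp1-high cells and 197 and 192 in Cd300lg/Aqp7 cells (log2 -2.84 ± 0.36, adjusted p = 3.45e-11). Cyp1a1, a target of the aryl hydrocarbon receptor, had no UMI in either Aqp1-high library and 81.3 and 78.0 in Cd300lg/Aqp7 cells, at least 9.68-fold lower. Rbp7, a retinol-binding protein listed with the arterial side, had 24.97 and 31.1 in Aqp1-high cells and 144 and 166 in Cd300lg/Aqp7 cells (log2 -2.43 ± 0.36), and it was the 1 of 19 arterial-side genes that passed. Arhgap18, a GTPase-activating protein, had 74.9 and 114 in Aqp1-high cells and 383 and 255 in Cd300lg/Aqp7 cells (log2 -1.44 ± 0.24). Among the 10 capillary genes Rbp7, Timp4 and Car4 were lower and Tmem252 higher. Car4, a carbonic anhydrase on the capillary surface, had 137 and 352 in Aqp1-high cells and 495 and 567 in Cd300lg/Aqp7 cells (log2 -0.92 ± 0.18), and Timp4, a metalloproteinase inhibitor, had 674 and 366 in Aqp1-high cells and 1032 and 870 in Cd300lg/Aqp7 cells (log2 -1.002 ± 0.16).

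In 11 of the lists with 5 or more tested genes edgeR's test passed none between Aqp1-high and Cd300lg/Aqp7 cells. They were 14 VEGF receptor and co-receptor genes, 5 angiopoietin, Tie and apelin genes, 8 chemokine genes, 18 semaphorin and plexin genes, 14 fenestra and caveola genes, 17 junction genes, 8 Wnt genes, 17 MHC genes, 16 glycolysis and 21 oxidative phosphorylation genes, and 10 pan-endothelial genes. Over these 142 different genes 32 had an unadjusted edgeR p under 0.05, beside 982 of all 8465 genes tested. DESeq2 passed 0 of the 142, beside 64 of all 8465, and these lists were picked for having no edgeR call. A list with no passing gene is therefore not shown to be alike in the classes. Of 14 Notch genes Hes1, a Notch target, was the only one to pass, with 2584 and 1650 CPM in Aqp1-high cells and 832 and 1203 in Cd300lg/Aqp7 cells (log2 0.96 ± 0.14). Under edgeR with RLE size factors or with no scaling Hes1 did not pass, its adjusted p over the 15 alternatives spanning 4.46e-10 to 0.540. Hbb-bs, a haemoglobin gene, was called lower, but it was at 0 and 3.45 in Aqp1-high cells and at 0 and 2398 in Cd300lg/Aqp7 cells, so library 2 alone gave it.

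Of the 68 called genes named for this comparison, 16 passed in every one of the 15 alternatives that gave them an adjusted p. They were Il6, Lag3, Adamts4, Rgs16, Vwf, Csrp2, Irf1, Irf8, Atf3 and Apold1, higher, and Btnl9, Angptl4, Cyp4b1, Rbp7, Arhgap18 and Fabp4, lower. Not all of them had an adjusted p in all 15, as Angptl4 had it in 13 and Lag3 and Cyp4b1 in 14. The other 52 missed the threshold in 1 or more, most often without the library block, where Icam1, Lrg1, Pparg and Plin2 among others did not pass. Against contrast cells that also had 3 or more Aqp1 UMIs, 69 genes passed, all of them among the 172.

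Inside the gate, levels were also followed across the combined Cd300lg and Aqp7 count, over all cells of the capillary gate at any Aqp1 count and without a test. Fabp4, which took no part in the gates, had 7052 and 7495 CPM in cells with no Cd300lg or Aqp7 UMI, 6787 and 11569 at 1 UMI, 13057 and 13253 at 2 to 3 UMIs, 13699 and 16815 at 4 to 6 UMIs and 27970 and 29352 at 7 or more. Pparg had 10.4 and 21.3 at no UMI, 22.8 and 23.9 at 1 UMI, 81.5 and 61.5 at 2 to 3 UMIs, 41.0 and 78.1 at 4 to 6 UMIs and 116 and 153 at 7 or more. Both genes were thus highest at 7 or more UMIs and lowest at no UMI or 1 UMI, and between them Pparg had no steady order in library 1, where 1 to 14 UMIs made up each value. Meox2 had 344 and 277 at no UMI and 356 and 350 at 7 or more. The median depth was 2579 and 2545 UMIs per cell at no UMI and 3382 and 4437.5 at 7 or more, and its part in these levels was not tested.

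At the Aqp1 threshold, 2 cells of library 1 and 10 of library 2 with no Cd300lg or Aqp7 UMI lay just outside at 2 Aqp1 UMIs, and no cell of library 1 and 15 of library 2 just inside at 3. In library 2 the 11 cells at 1 Aqp1 UMI had 1264 Gpihbp1, 2804 Cd36 and 8294 Fabp4 CPM. The 10 cells at 2 UMIs had 377 Gpihbp1, 1885 Cd36 and 8880 Fabp4 CPM, the Gpihbp1 level resting on 9 UMIs. The 18 cells at 3 to 4 UMIs had 1058 Gpihbp1, 2659 Cd36 and 7704 Fabp4 CPM. In this library these 18 cells were thus no higher in the 3 genes than the 11 cells at 1 UMI. Gpihbp1 counts toward the gate together with Aqp1, so its level in cells with few Aqp1 UMIs depends in part on the rule.

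The second comparison set Aqp1-high cells against the Plvap-high capillary cells. Aqp1-high cells had higher levels of the transcription factor Meox2, of Lpl and of the bone morphogenetic protein Bmp6, and lower levels of Nkx2-3, Esm1 and Igfbp4. Of the same 8465 genes 1098 passed (13.0%), 511 higher (6.04%) and 587 lower (6.93%). Of the 1098, 1076 moved the same way in library 1 and library 2, as did 61.0% of all those tested. Here too the selection favours such agreement. Without the library block 609 passed. With no scaling beyond library totals 1004 passed, and the split turned to 591 higher and 413 lower, as the median of all genes moved by 0.11 on the log2 scale. Both comparisons use the same Aqp1-high sums, so their values are given side by side and not as a shared result.

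Meox2, which with Tcf15 drives fatty acid uptake genes in heart and muscle endothelium, had 362 and 387 CPM in Aqp1-high cells, against 4.38 and 5.88 in Plvap-high cells. The log2 fold change was 5.92 ± 0.25 (adjusted p = 1.93e-94). Cd300lg/Aqp7 cells had 418 and 367, a range that covers one Aqp1-high library and adjoins the other. Tcf15 had 424 and 683 in Aqp1-high cells and 234 and 195 in Plvap-high cells (log2 1.41 ± 0.16). Tshz2, a zinc finger factor, had 836 and 618 in Aqp1-high cells and 146 and 65.5 in Plvap-high cells (log2 2.85 ± 0.17). The homeobox gene Nkx2-3, a factor of intestinal vessels, went the other way, with 24.97 and 58.7 in Aqp1-high cells and 596 and 596 in Plvap-high cells (log2 -3.67 ± 0.26). Of 45 endothelial transcription factors tested 13 were higher and 6 lower (median log2 0.22). Irx3 and Sox17 were among the higher ones, at log2 4.26 and 1.001, and Meis2 and Meox1 among the lower ones, at -2.47 and -2.26.

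**Figure D4:**
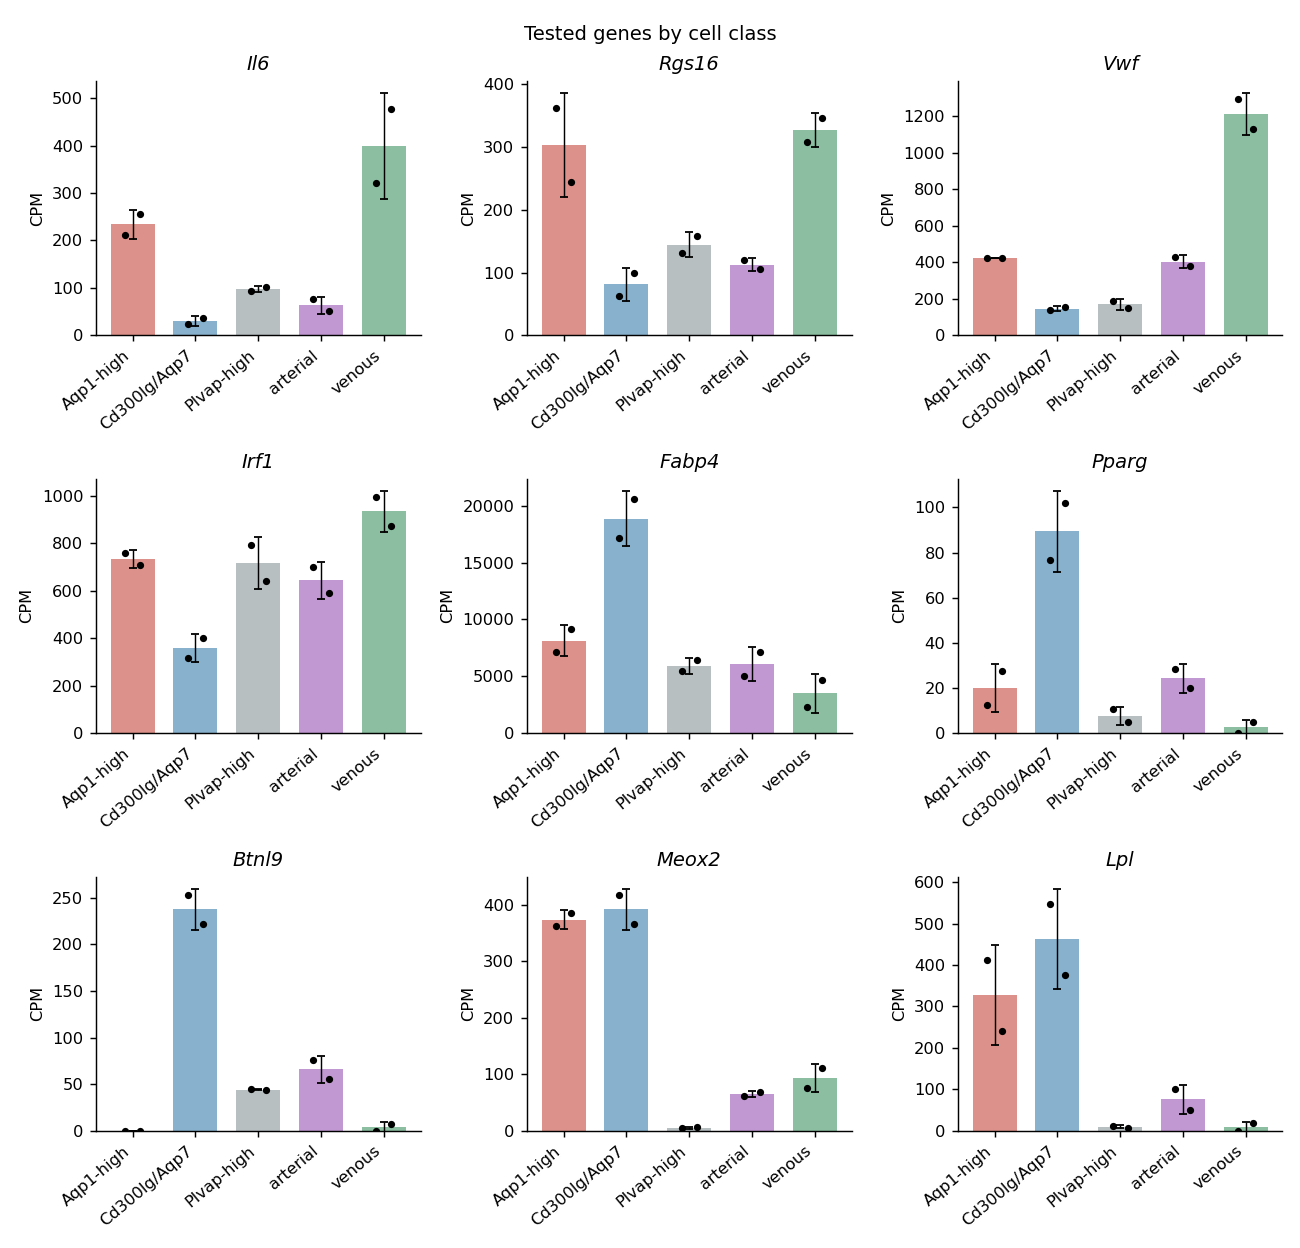
Bars give the mean of both libraries in CPM, error bars the SD (n = 2) and points the libraries, for 9 tested genes in 5 classes. Il6, Rgs16 and Vwf stand above Cd300lg/Aqp7 cells in Aqp1-high and venous cells, Fabp4, Pparg and Btnl9 are highest in Cd300lg/Aqp7 cells, and Meox2 and Lpl are high in Aqp1-high and Cd300lg/Aqp7 cells.

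Lpl had 412 and 242 CPM in Aqp1-high cells and 12.3 and 7.43 in Plvap-high cells (log2 4.93 ± 0.26, adjusted p = 7.06e-65). Of the 14 lipid uptake genes 5 were higher (Lpl, Apoe, Cav1, Scarb1 and Fabp4) and 3 lower (Abca1 among them), with a median log2 difference of 0.01. Apoe had 462 and 376 in Aqp1-high cells and 179 and 134 in Plvap-high cells (log2 1.32 ± 0.18). Fabp4 had 7152 and 9125 in Aqp1-high cells and 5434 and 6417 in Plvap-high cells, a small difference (log2 0.34 ± 0.11, adjusted p = 0.0188) that did not pass in 5 of 13 alternatives. By their mean levels, Aqp1-high cells were nearer to Cd300lg/Aqp7 cells for Lpl and Meox2 and nearer to Plvap-high cells for Fabp4.

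Bmp6 had 225 and 135 CPM in Aqp1-high cells and 6.13 and 2.55 in Plvap-high cells (log2 5.52 ± 0.36), and Bmp4, a related ligand, was also higher (log2 3.86 ± 0.49). The receptor Tgfbr2 had 112 and 117 in Aqp1-high cells and 1084 and 847 in Plvap-high cells (log2 -3.11 ± 0.21). Timp4 had 674 and 366 in Aqp1-high cells and 13.1 and 9.09 in Plvap-high cells (log2 5.35 ± 0.23). Ptger4, a prostaglandin E receptor, had 87.4 and 110 in Aqp1-high cells and 1.75 and 2.55 in Plvap-high cells, and Fmo1, a flavin monooxygenase, had 162 and 248 in Aqp1-high cells and 8.75 and 5.10 in Plvap-high cells. The cadherin gene Cdh13 had 325 and 197 in Aqp1-high cells and 15.8 and 15.9 in Plvap-high cells (log2 3.67 ± 0.25).

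Of 18 solute carriers and efflux pumps 7 were higher and 5 lower. Abcb1a, the efflux pump P-glycoprotein, had 849 and 756 CPM in Aqp1-high cells and 189 and 126 in Plvap-high cells (log2 2.32 ± 0.15). Abcg2, another efflux pump, had 300 and 362 in Aqp1-high cells and 128 and 98.2 in Plvap-high cells (log2 1.59 ± 0.19), and the nucleoside transporter Slc28a2 had 250 and 197 in Aqp1-high cells and 21.0 and 16.0 in Plvap-high cells (log2 3.48 ± 0.26). The glucose transporter Slc2a1 was lower at 24.97 and 27.6 in Aqp1-high cells and 65.6 and 71.0 in Plvap-high cells (log2 -1.48 ± 0.41). Of 16 glycolysis genes 6 were lower, Gapdh among them, and 1 was higher.

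Caveola and fenestra genes split, with 6 of 14 higher and 5 lower. Among caveola coat genes Cavin2, Cavin1, Cav1 and Cav2 were higher and Cavin3 was lower (log2 -1.52 ± 0.20). Cavin2 had 1822 and 1508 CPM in Aqp1-high cells and 661 and 566 in Plvap-high cells (log2 1.32 ± 0.13), Cavin1 gave a log2 difference of 1.16 ± 0.14 and Cav1 0.98 ± 0.13. The EH domain gene Ehd4 was lower, with 250 and 380 in Aqp1-high cells and 1216 and 1362 in Plvap-high cells (log2 -2.11 ± 0.17), and Ehd3 had 1 UMI in Aqp1-high cells against 2114 in Plvap-high cells, a level 77.0-fold lower per UMI captured with a 95% counting interval of 13.8 to 3041.

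Of 24 basement membrane and matrix genes 9 were lower and 6 higher in Aqp1-high cells. Col15a1, a collagen of capillary basement membranes, had 87.4 and 82.8 CPM in Aqp1-high cells and 794 and 657 in Plvap-high cells (log2 -3.18 ± 0.23). Nid2 had 24.97 and 24.2 in Aqp1-high cells and 127 and 137 in Plvap-high cells (log2 -2.59 ± 0.38). Igfbp4, which binds insulin-like growth factors, had 0 and 44.9 in Aqp1-high cells and 937 and 825 in Plvap-high cells (log2 -4.76 ± 0.28), and Igfbp7 had 3133 and 2833 in Aqp1-high cells and 8171 and 8914 in Plvap-high cells (log2 -1.65 ± 0.12). Igfbp3 was lower than in Plvap-high cells, at 899 and 739 in Aqp1-high cells and 1596 and 1536 in Plvap-high cells, yet higher than the 358 and 414 of Cd300lg/Aqp7 cells (log2 -1.10 ± 0.14 and 1.01 ± 0.15).

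Of 17 tip cell and sprouting genes 7 were lower and 3 higher. Esm1, secreted by tip cells under VEGF, had 3 UMIs in Aqp1-high cells and 3371 in Plvap-high cells, 40.9-fold lower per UMI captured (95% counting interval 14.0 to 198). Angpt2, the angiopoietin of remodelling vessels, was higher at 74.9 and 51.8 CPM in Aqp1-high cells and 6.13 and 9.65 in Plvap-high cells (log2 2.50 ± 0.46). Of the VEGF receptors Kdr was lower, at 1211 and 1022 in Aqp1-high cells and 1609 and 1690 in Plvap-high cells (log2 -0.71 ± 0.13), as was the co-receptor Nrp1 (log2 -0.67 ± 0.13). Arterial-side genes were lower in 10 of 19 and higher in 5. Gja4, a connexin of arterial endothelium, had 3 UMIs in Aqp1-high cells and 1650 in Plvap-high cells, 20.0-fold lower per UMI captured (6.84 to 97.2). Jag1 was lower (log2 -1.86 ± 0.37) and Jag2, another Notch ligand, higher (log2 1.22 ± 0.21).

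Interferon response genes were higher in 11 of 26 and lower in 3, with a median log2 difference of 0.56. Ifit1 had 125 and 276 CPM in Aqp1-high cells and 53.4 and 47.1 in Plvap-high cells (log2 2.19 ± 0.22), and Ifit3, Irf7 and Rsad2 gave log2 differences of 1.55, 1.25 and 1.25. Il6 was higher also in this comparison, by 1.18 ± 0.20 on the log2 scale (adjusted p = 3.49e-07). Vcam1, a leukocyte adhesion receptor, had 312 and 72.5 in Aqp1-high cells and 0 and 3.55 in Plvap-high cells, and its adjusted p of 0.0315 became 0.153 at most over 13 alternatives, 5 of which it did not pass.

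**Figure D5:**
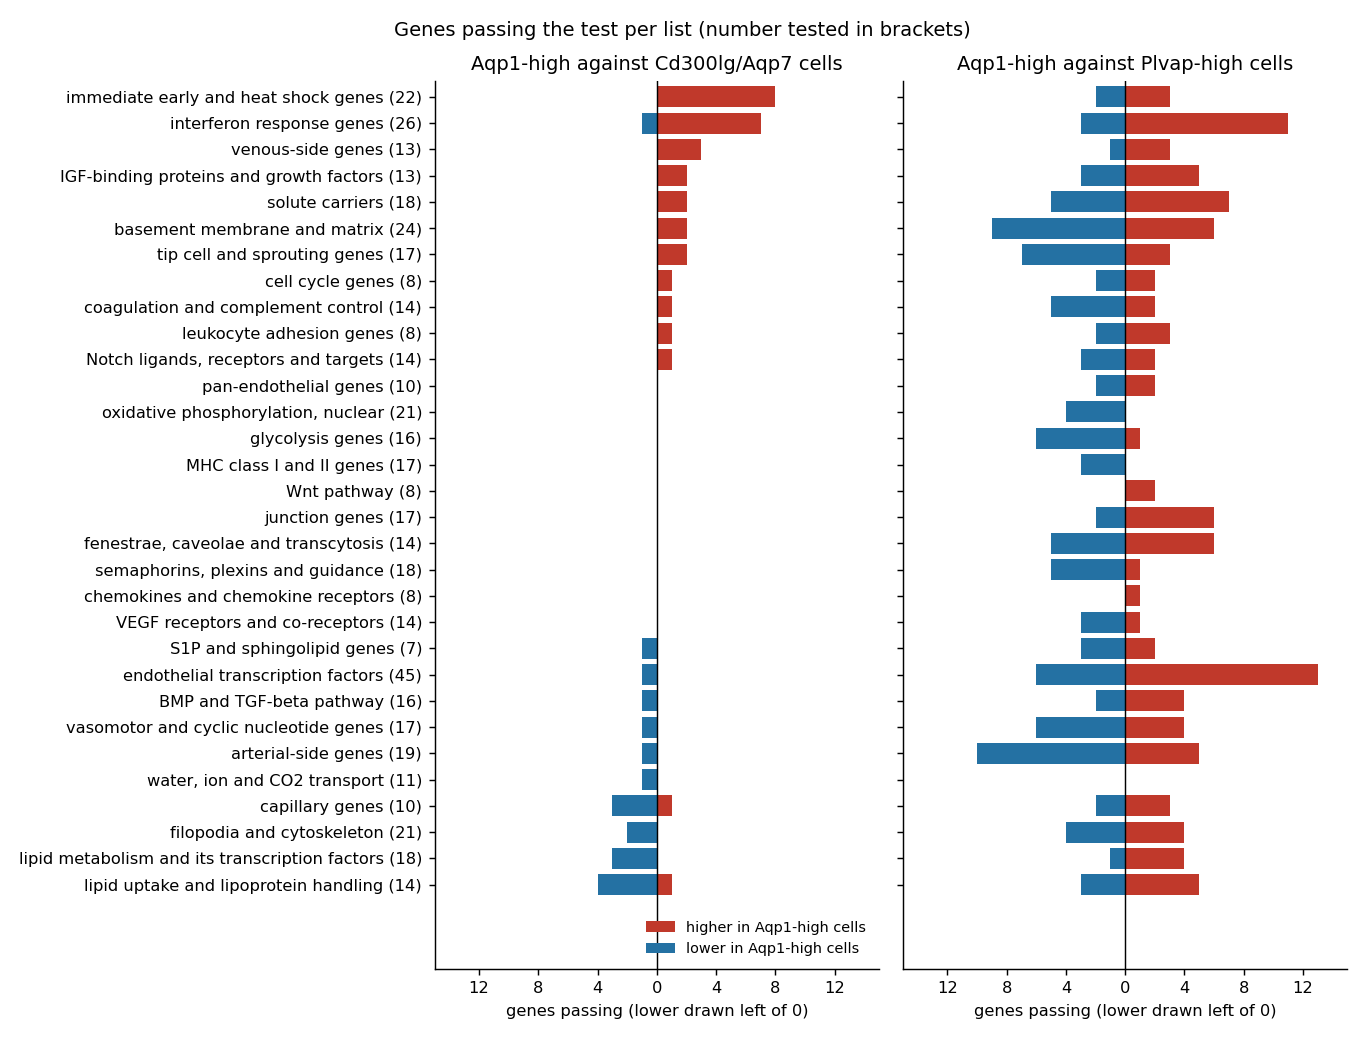
For each gene list with more than 6 tested genes the bars give the number of genes that passed, to the right when higher and to the left when lower in Aqp1-high cells, against Cd300lg/Aqp7 cells (left panel) and Plvap-high cells (right panel), with the number tested in brackets. Immediate early and interferon genes lead the higher calls on the left, at 8 of 22 and 7 of 26, and lipid uptake the lower ones, at 4 of 14.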

How the data were processed

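Endothelial cells of the mouse ileum were measured as 2 droplet libraries. The authors deposited raw UMI counts per gene and cell barcode; bcl2fastq 2.2, Cell Ranger 3.1.0 and mouse build mm10 are named per the submitters' processing notes, which name no annotation. Barcodes were kept from 500 detected genes upward and up to a mitochondrial share of 15%. No doublets were removed in the main result; a doublet score (scanpy 1.11.5) served an alternative. Of the members, 2 and 3 fell in the top 5% of scores. UMIs were summed per class and library and tested with edgeR 4.0.16 (TMM, minimum count 10, library as a block, since each library supplied every class). Named genes are, per comparison, the 12 largest changes in each direction with 50 or more CPM in the higher class of each library and no change of sign between them, plus the 4 lowest adjusted p-values at most per list; further list members are named where they count toward its calls. Lpl, Tcf15 and Nfkbia against Cd300lg/Aqp7 cells and Il6 against Plvap-high cells were chosen after their values were seen. The members and the 39 gene lists were chosen with earlier results of these data known. The test was run on simulated counts, with a spread fixed beforehand and changed genes above 50 CPM. Against Cd300lg/Aqp7 cells it recovered 43 of 100 genes changed 2-fold and 90 of 100 changed 4-fold. Against Plvap-high cells it recovered 54 and 92, so many 2-fold changes can be missed. Among unchanged genes it called 6 against Cd300lg/Aqp7 cells and 3 against Plvap-high cells. The simulated spread was not taken from these libraries, so the rates may differ in them. Promoters are from RefSeq (GRCm38). Alternatives included DESeq2 1.42.0, other scalings, filters and gates.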

Additional observations from a re-analysis of the deposited data

How the results depend on the processing

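Direction held for the genes named in every alternative that tested them, with Hbb-bs the exception: its log2 difference was -9.07 without replicate 1 and 0.0 without replicate 2. Against Cd300lg/Aqp7 cells 172 genes passed. The count was 64 with DESeq2 (the cause was not tested), 34 with no replicate block, 114 with arterial and venous cells added to the fit, 60 with equal cell numbers per class, 69 with contrast cells at 3 or more Aqp1 UMIs and 265 with contrast cells at 4 or more Cd300lg and Aqp7 UMIs; in the other 9 settings it was 115 to 166. Against Plvap-high cells 1098 passed, and 579 did with DESeq2, 609 with no replicate block and 575 with equal cell numbers, against 885 to 1074 in the other 10. Equal cell numbers leave fewer UMIs by construction. After cells of 2000 or more UMIs were thinned to 2000 before the gates and shallower ones left out, 138 and 897 genes passed. Of these, 85 and 725 were among the calls of the raw counts. The mean share of Aqp1-high cells was then 3.47%, against 2.22% with the raw counts (1.78 to 2.66% with 1 library left out). Leaving out a library leaves 1 sum per class and no residual spread, so it gives values and no count of calls. Depth limits the class most in library 1, where 80113 UMIs make 1 UMI worth 12.5 CPM.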

Other observations

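Apart from Rel, the genes here were chosen after their values were seen, so their p-values are descriptions, and none of them passed in every alternative. They belong to no list that was tested, and each passed with a higher level in Aqp1-high than in Cd300lg/Aqp7 cells. Relb did not pass in 10 of 14 alternatives, Osmr in 7 of 15, Nfkbia in 3, Rel and Stat3 in 2, and Bcl3 and Cish in 1. Rel, an NF-kB subunit, had 74.9 and 107 CPM in Aqp1-high cells and 48.8 and 36.1 in Cd300lg/Aqp7 cells (log2 1.38 ± 0.32, edgeR adjusted p = 0.00204). Relb, another subunit, had 112 and 86.3 in Aqp1-high cells and 37.2 and 44.8 in Cd300lg/Aqp7 cells (log2 1.11 ± 0.32). Bcl3, a nuclear partner of NF-kB, had 175 and 155 in Aqp1-high cells and 48.8 and 73.4 in Cd300lg/Aqp7 cells (log2 1.25 ± 0.25). Nfkbia, which holds NF-kB in the cytoplasm, had 886 and 1001 in Aqp1-high cells and 662 and 638 in Cd300lg/Aqp7 cells (log2 0.58 ± 0.14, adjusted p = 0.00593).

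Stat3, the transcription factor downstream of IL-6 family receptors, had 599 and 597 CPM in Aqp1-high cells and 328 and 342 in Cd300lg/Aqp7 cells (log2 0.84 ± 0.16, edgeR adjusted p = 5.74e-05). Osmr, the oncostatin M receptor, had 612 and 542 in Aqp1-high cells and 414 and 352 in Cd300lg/Aqp7 cells (log2 0.61 ± 0.16). Cish, a feedback inhibitor of cytokine signalling, had 199.7 and 124 in Aqp1-high cells and 34.9 and 60.6 in Cd300lg/Aqp7 cells (log2 1.37 ± 0.27). In each of these genes both Aqp1-high libraries were above both Cd300lg/Aqp7 libraries. The genes were called from these same libraries, so the selection favours such an order, which is no separate support.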
